A study of Mus musculus with 7 samples.

Results

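The genes described here encode the initiation and elongation factors of cytosolic protein synthesis, measured by RNA sequencing in mouse hematopoietic stem cells (HSCs) with and without Dek, a chromatin-binding protein. They were taken by symbol, as all genes named Eif1 to Eif6 or Eef1 to Eef2, which gave 76 of the 33298 genes of the deposited table. The 4 kinases of eIF2 alpha, the X- and Y-linked copies of the eIF2 gamma subunit and 8 pseudogenes were left out, which leaves 62 genes. Of the 8 pseudogenes, 7 carry a number after their -ps ending and 1 does not. No measured value was used to choose the 62.

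Both groups were mice of 12 weeks with floxed Dek alleles (Dekfl/fl), kept under homeostatic conditions. The Dek_fl group, the controls, had 4 libraries and carried no recombinase. The Dek_cKO group, the knockouts, had 3 libraries and also carried Tie2-Cre, a recombinase driven by a promoter active in endothelial and blood cells, so that deletion is not restricted to HSCs. For each library about 800 lineage-negative bone marrow cells were sorted that carried Sca-1, c-Kit and CD150 and lacked CD48, and polyadenylated RNA was amplified with a low-input kit. The labels do not say how many animals stand behind a library, so p-values measure only the spread between these libraries, which may be technical. In bulk samples, fewer cells of a type and less RNA per cell cannot be told apart.

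Initiation begins when eIF2 brings the initiator tRNA to the small ribosomal subunit, which carries eIF1, eIF1A and the large scaffold eIF3. The cap-binding eIF4F complex then loads this subunit onto a messenger RNA, and eIF5, eIF5B and eIF6 govern the joining of the large subunit. During elongation eEF1A delivers aminoacyl-tRNAs, eEF2 moves the ribosome along, and eIF5A relieves stalled ribosomes. HSCs are known for a low rate of protein synthesis compared with their progeny, and both eIF2 and eIF4E are points at which stress kinases and mTORC1 restrain it.

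Many transcripts of this machinery belong to the 5′ TOP class, whose first bases are a C followed by a run of pyrimidines through which mTORC1 controls their translation. The windows of 6 members around the start of transcription are shown to set starts with such a run beside starts without one, and these 6 were picked after their sequences were seen. Each runs from 15 bases before the RefSeq start to 20 bases from it, 5′ to 3′ on the strand of the gene, in GRCm38.p6. Capitals mark a C followed by at least 6 bases that are C or T.
Eef1a1: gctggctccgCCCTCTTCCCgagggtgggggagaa
Eef2: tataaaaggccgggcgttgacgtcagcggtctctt
Eef1b2: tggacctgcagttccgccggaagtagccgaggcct
Eif3f: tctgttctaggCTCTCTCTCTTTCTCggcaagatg
Eif3l: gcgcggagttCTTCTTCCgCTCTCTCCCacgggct
Eif4b: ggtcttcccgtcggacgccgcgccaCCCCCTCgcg
These windows lie at chr9:78481705-78481739 on the minus strand for Eef1a1, and on the plus strand at chr10:81176616-81176650 for Eef2, chr1:63176816-63176850 for Eef1b2, chr7:108934400-108934434 for Eif3f, chr15:79075208-79075242 for Eif3l and chr15:102073758-102073792 for Eif4b. The run crosses the annotated start in Eef1a1, Eif3f and Eif3l and lies past the annotated start in Eif4b, and Eef2 and Eef1b2 hold none in this window. The Eef2 window ends inside a stretch of C and T, so a run that continues past its edge would not be counted. Starts were found in RefSeq for 47 of the 62 genes, with 61 starts in all. The run was searched on the coding strand only, and 15 of the 61 member starts (24.6%) held it, against 16.2% of all 32851 starts in the table. That window and run length were chosen after 12 combinations had been looked at, and the excess depends on the choice: the members' share was above that of all starts in 8 combinations and below it in 4. With 30 bases on either side and at least 4 pyrimidines after the C, 52.5% of member starts and 59.1% of all starts matched, while with 10 bases on either side and at least 7 the shares were 13.1% and 5.61%. Of 13 member genes with a run in the window used, 11 were tested between the groups defined above, with 3 fold changes above and 8 below 0, and 33 without one were tested. The median log2 fold changes were -0.16 and 0.08, knockouts minus controls on the scale of log2(FPKM + 1), where FPKM are fragments scaled by the length of the transcript and the depth of the library. A match is a description of the letters and not of a site in use. Whether the annotated starts are those used in these cells was not tested. A run in capitals therefore need not be the first bases of a transcript. Likewise, a window without a run does not show that the transcript lacks one.

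The libraries differed widely in depth and composition, and this touches each value that follows. Library totals recovered from the values ran from 4209152 to 26951515 reads in the controls and from 4422645 to 12540431 in the knockouts. Dek_fl replicate 4 had the fewest genes above 0, at 8575, against 14291 to 19950 in the others, and the top gene took 8.26% to 31.4% of all FPKM. Dek stood at 77.0, 118, 143 and 26.05 FPKM in the controls and at 9.60, 8.40 and 12.7 in the knockouts, where the value of replicate 3 is not a whole number of reads. The 10 HSC markers summed to 408 to 672 FPKM in the controls and 411 to 980 in the knockouts. Single markers differed in both directions. Gata2 was at 31.5 to 124 FPKM in the controls and 7.52 to 18.3 in the knockouts, and Esam at 3.08 to 93.2 and 75.9 to 210. These 2 were picked after their values were seen. The Gata2 value of Dek_cKO replicate 1, 7.51515 FPKM, carries more than the 4 decimals usual in the table, and the cause was not tested. Of the 10 HSC markers, 9 reached 1 FPKM in at least 3 libraries. The exception was Slamf1, which encodes the CD150 of the sort and did not exceed 1.80 FPKM in any library, while Cd48, a marker the sort selects against, was at 4.10 to 206 FPKM. The 4 markers of committed progenitors summed to 235 to 1705 FPKM in the controls and 125 to 7189 in the knockouts, the highest being Dek_cKO replicate 3, with Elane at 5393 FPKM. Megakaryocyte markers summed to 84.7 to 1166 FPKM in the controls and 111 to 377 in the knockouts, and those of B cells to 4.32 FPKM at most. The 3 T and NK cell markers summed to 34.9 to 576 FPKM in the controls and 451 to 1345 in the knockouts, carried by Nkg7, with Cd3d listed at 0 in all libraries. The 6 myeloid markers summed to 269 to 509.5 FPKM in the controls and 412 to 615 in the knockouts. That sum was carried by Lyz2, S100a8 and S100a9, with Itgam, Ly6g and Csf1r under 1 FPKM in all libraries. Erythroid markers summed to 18.3 to 85.6 FPKM in the controls and 5.27 to 70.6 in the knockouts, and those of endothelial cells to 8.35 to 22.8 and 14.3 to 48.5. The part of these differences in the values of the translation factors was not tested.

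Elongation factors and eIF5A dominated the transcripts of the machinery. The share of the 62 genes in the FPKM of a library was 1.12% to 2.31%, and Eef1a1 and Eif5a alone made up 42.7% to 57.5% of that sum. Eef1a1, on chromosome 9 (78478449 to 78489151, minus strand, GRCm38), encodes the carrier of aminoacyl-tRNAs and stood at 4736, 3981, 3472 and 2432 FPKM in the controls. In the knockouts it stood at 2153, 3622 and 2933 FPKM. Dek_cKO replicate 1 and Dek_fl replicate 4 were the lowest and the groups overlapped, with means of 3655 ± 967 (SD, n = 4) and 2903 ± 735 (SD, n = 3). Its tissue-restricted paralog Eef1a2 was listed at 0 in 5 libraries and did not exceed 0.456 FPKM.

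Eif5a, on chromosome 11 (69916714 to 69921958, minus strand), had values of 2680, 2597, 2200 and 805 FPKM in the controls and of 2075, 1639 and 1350 in the knockouts. The lowest value was that of Dek_fl replicate 4, so the Dek_cKO libraries lay inside the range of the controls. Eif5a2, a second gene for eIF5A, was at 1.75, 0.0890, 0.0074 and 14.96 FPKM in the controls, and in the knockouts it was at 0.301 in replicate 1 and listed at 0 in the others. Its highest value, in Dek_fl replicate 4, rests on 340 reads, against 37 or fewer elsewhere. Eef2, the translocase, on chromosome 10 (81176631 to 81182498, plus strand), had 358, 402, 469 and 321 FPKM in the controls and 295, 334 and 382 in the knockouts. It was the steadiest of the tested members, with an SD of 0.22 on the log2(FPKM + 1) scale over the 7 libraries.

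The exchange factor that recharges eEF1A is built from the products of Eef1b2, Eef1d and Eef1g. Eef1g was at 497, 408, 483 and 249 FPKM in the controls and 170.5, 613 and 452 in the knockouts, with the lowest and the highest value both in the knockouts. Eef1b2 ranged from 107 to 605 FPKM and Eef1d from 45.7 to 139, each highest in Dek_fl replicate 4. Eef1e1, whose product is a scaffold of the tRNA synthetase complex, was at 28.8 to 76.0 FPKM in 6 libraries and at 0.780 in Dek_fl replicate 4.

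**Figure D1:**
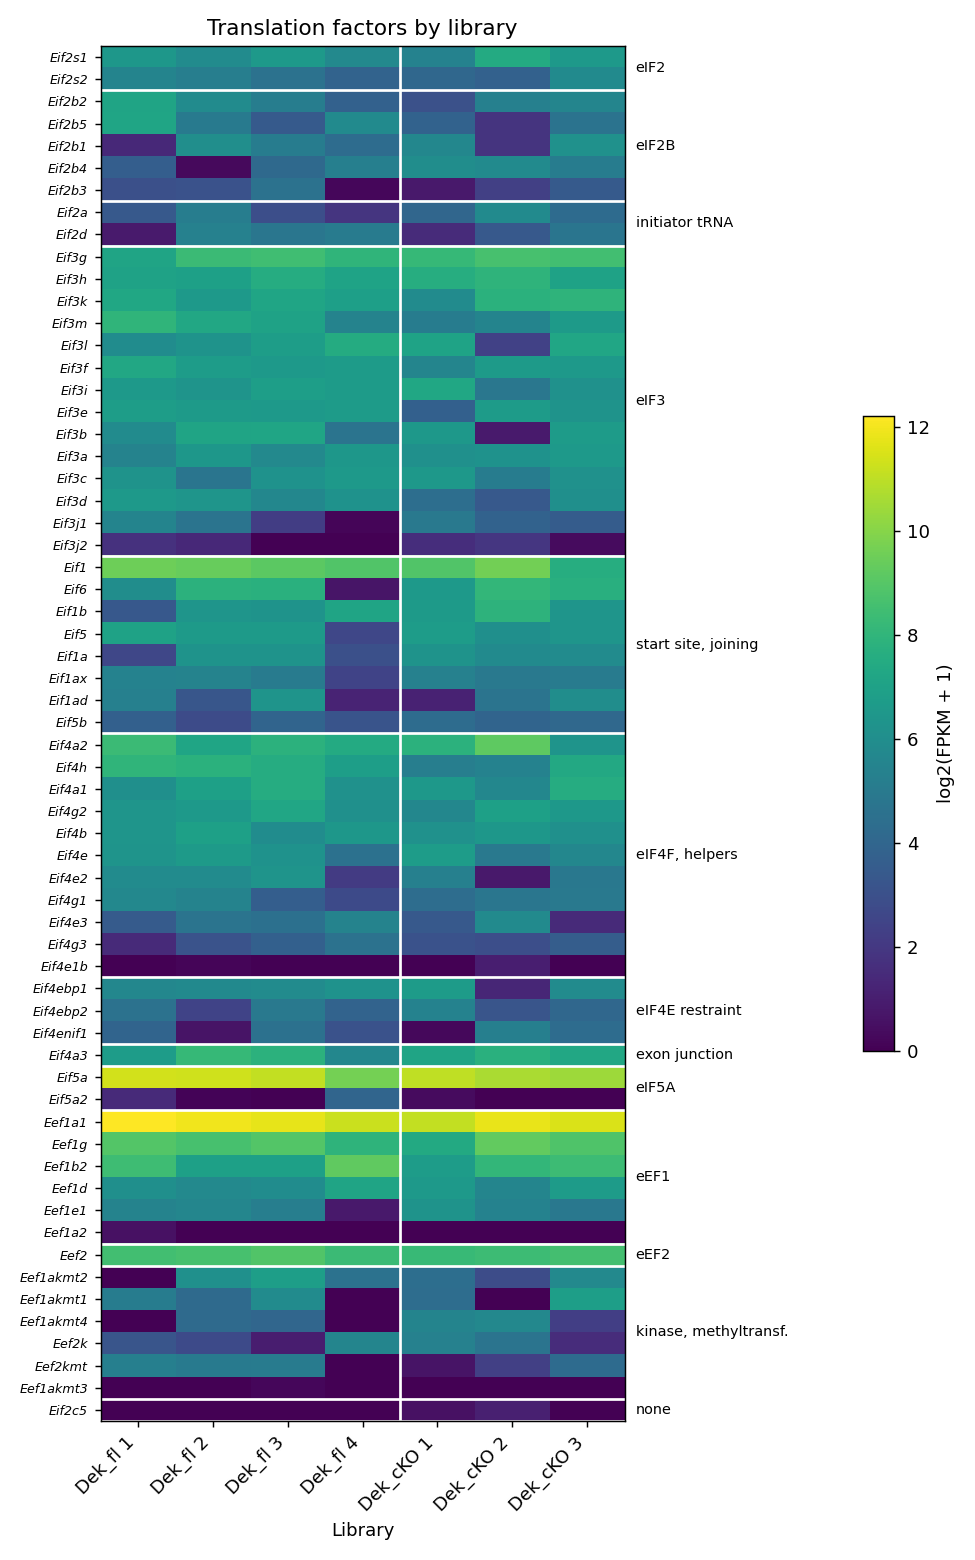
Level of the 62 translation factors in each library as log2(FPKM + 1), with libraries in columns, genes in rows by factor complex, and colour running from 0 (dark) to the highest level (yellow). Eef1a1 and Eif5a are bright in all 7 libraries, while Eif6 and Eif3b show single dark cells, in Dek_fl replicate 4 and Dek_cKO replicate 2.

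Factors that select the start codon and join the subunits summed to 1011 ± 256 FPKM in the controls (SD, n = 4) and 1039 ± 378 in the knockouts (SD, n = 3), and Eif1 was their most abundant gene. Eif1, which guards the fidelity of the start codon, on chromosome 11 (100319885 to 100322096, plus strand), was at 739, 661, 569 and 476 FPKM in the controls. In the knockouts it was at 478, 773 and 197 FPKM, which places the highest and the lowest library of all in the same group. Its paralog Eif1b averaged 103 FPKM over the 7 libraries, with a range of 9.18 to 233. Eif6, which keeps free large subunits from joining too early, on chromosome 2 (155819832 to 155826925, minus strand), was at 63.2, 229.98, 214 and 0.590 FPKM in the controls and at 97.1, 266 and 206 in the knockouts. The low value in Dek_fl replicate 4 stands for 4 reads, whereas the other libraries have 399 to 8633. Eif5, the GTPase activator of eIF2, was lowest in the same library, at 5.13 FPKM against 65.7 to 130.1 in the others.

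The scaffold eIF3 was represented by 14 genes, all of which were tested. Eif3g, an RNA-binding subunit, was the most abundant in 6 of the 7 libraries, at 138, 316, 358 and 251 FPKM in the controls and 289, 399 and 364 in the knockouts. Eif3h followed at 131, 122, 190 and 135 FPKM in the controls and 194, 248 and 131 in the knockouts. Eif3d, a subunit with cap-binding activity on some messages, was at 95.3, 82.5, 48.9 and 73.2 FPKM in the controls and 20.3, 9.71 and 65.9 in the knockouts. The first 2 Dek_cKO libraries lay under all controls and the third among them. For the whole set, the sum of eIF3 transcripts was 1425 ± 98.6 FPKM in the controls (SD, n = 4) and 1358 ± 189 in the knockouts (SD, n = 3), a difference smaller than the SD of either group.

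Single eIF3 subunits nevertheless fell far below their partners in single libraries. Leaving aside Eif3j1 and Eif3j2, which are similar copies of a loosely bound subunit, the 12 others spanned 5.53-fold to 23.4-fold between the lowest and the highest in 6 libraries. In Dek_cKO replicate 2 they spanned 473-fold, from Eif3b at 0.845 FPKM to Eif3g at 399. Eif3b, a core subunit on chromosome 5 (140419328 to 140443360, plus strand), rests there on 11 reads, against 333 to 11403 in the other libraries, where it stood at 25.0 to 144 FPKM. Eif3l was also low in that library, at 4.06 FPKM and 34 reads, against 60.4 to 181 FPKM elsewhere. In Dek_cKO replicate 1 the lowest subunit was Eif3e, at 12.4 FPKM, although in the 4 Dek_fl libraries it varied little, at 101 ± 5.53 FPKM (SD, n = 4). Eif3b, Eif3e and Eif3l, like Eif5 and Eef1e1 above, were singled out after their values were seen.

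**Figure D2:**
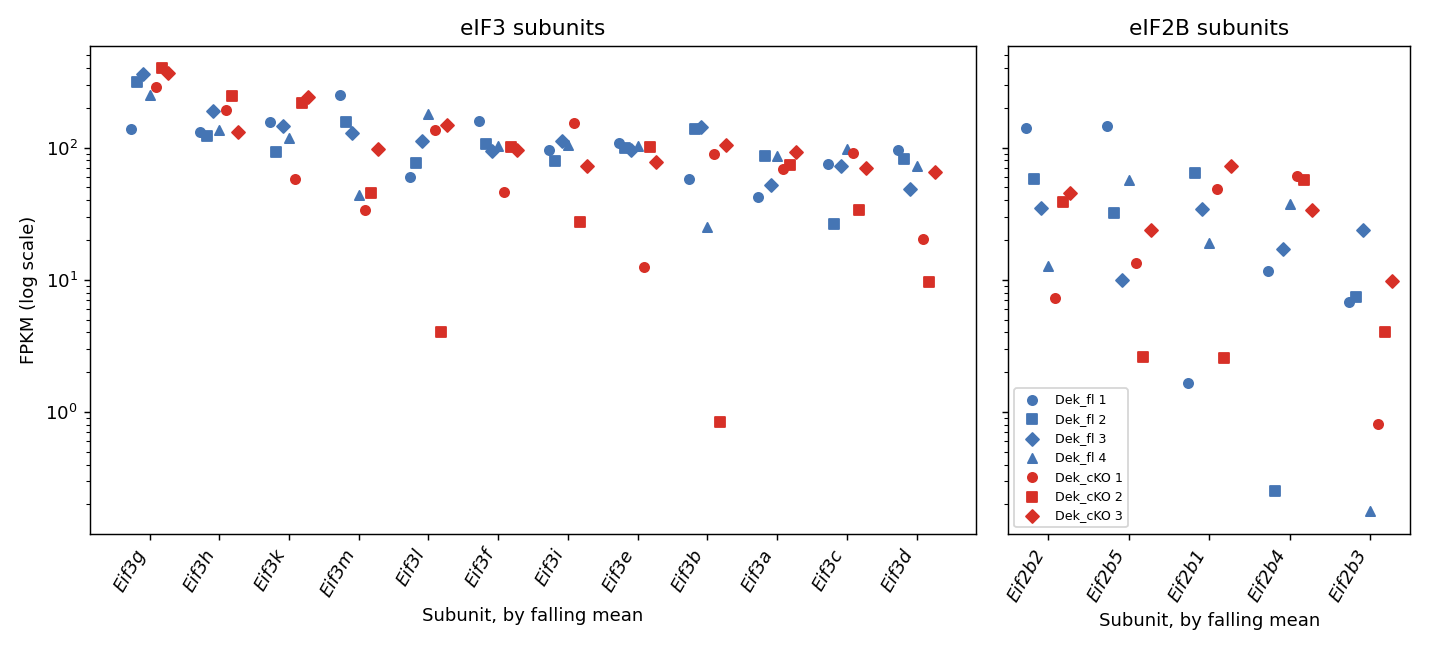
FPKM of eIF3 subunits (left) and eIF2B subunits (right) in each library on a log axis, with Dek_fl in blue, Dek_cKO in red and the marker shape giving the replicate number. Eif3b and Eif3l of Dek_cKO replicate 2 lie at 0.845 and 4.06 FPKM, far below Eif3g of that library at 399, and Eif2b4 runs from 0.252 to 61.3 FPKM.

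The initiator tRNA is carried by eIF2, whose alpha subunit, encoded by Eif2s1, is the site of phosphorylation by stress kinases. Eif2s1 was at 87.1, 58.6, 96.5 and 52.9 FPKM in the controls and at 41.7, 176 and 94.0 in the knockouts. The beta subunit Eif2s2 was lower, at 44.4, 36.9, 23.2 and 14.0 FPKM in the controls and 16.1, 12.7 and 56.5 in the knockouts. In both genes the extremes of all libraries fell within Dek_cKO. Eif2a, which can bring initiator tRNA under stress, was at 9.69, 34.9, 6.69 and 2.71 FPKM in the controls and 15.5, 56.7 and 18.2 in the knockouts. Eif2d, a factor of non-canonical initiation and recycling, was at 0.823, 40.5, 26.6 and 32.7 FPKM in the controls and 1.84, 9.46 and 26.1 in the knockouts. The values of both genes overlapped between groups.

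The exchange factor eIF2B restores eIF2 to its active form, and its 5 subunits spanned 3.52-fold to 322-fold within a library. Eif2b3 was the lowest in 3 libraries, Eif2b1 in 2, and Eif2b4 and Eif2b5 in 1 each. The catalytic subunit Eif2b5, on chromosome 16 (20498817 to 20509323, plus strand), was at 145, 32.1, 9.96 and 56.9 FPKM in the controls and 13.4, 2.63 and 23.9 in the knockouts. The regulatory subunit Eif2b4, on chromosome 5 (31187558 to 31193430, minus strand), was at 11.6, 0.252, 17.2 and 37.7 FPKM in the controls and 61.3, 57.3 and 33.5 in the knockouts. Eif2b2, another regulatory subunit, was at 139.9, 58.3, 35.1 and 12.7 FPKM in the controls and 7.22, 39.0 and 45.6 in the knockouts. The groups overlapped in all 3 genes.

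The cap complex eIF4F joins the cap-binding eIF4E, the scaffold eIF4G and the helicase eIF4A, which eIF4B and eIF4H stimulate. Eif4a2 was the most abundant gene of this set, at 317, 146, 231 and 173 FPKM in the controls and 229.7, 575 and 79.98 in the knockouts. The ratio of Eif4a2 to its paralog Eif4a1 ran from 0.421 in Dek_cKO replicate 3 to 11.7 in Dek_cKO replicate 2, and Eif4a2 was the higher copy in all libraries but the former. The pseudogene Eif4a-ps4 stood at 225 FPKM in Dek_cKO replicate 3 and at 5.20 to 55.8 in the others. Whether reads were shared among these genes was not tested. Eif4e ranged from 22.5 to 107 FPKM and the scaffold Eif4g1 from 5.65 to 50.9. The relative Eif4a3, a helicase of the exon junction complex, was at 108, 290.03, 232 and 48.7 FPKM in the controls and 137, 214 and 157 in the knockouts. The Dek_cKO libraries thus lay within the range of the controls.

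Eif4h, on chromosome 5 (134619721 to 134639490, minus strand), had the smallest p of the set. It was at 254, 222, 187 and 116 FPKM in the controls and 36.5, 41.6 and 167 in the knockouts. Dek_cKO replicates 1 and 2 lay under all controls, whereas replicate 3 lay above Dek_fl replicate 4. The means were 195 ± 59.3 FPKM (SD, n = 4) and 81.7 ± 73.9 FPKM (SD, n = 3). By limma its log2 fold change was -1.54 (SE 0.684), with an unadjusted p of 0.0354 and an adjusted p of 0.9999 over all genes.

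The restraint on eIF4E comes from the 4E-binding proteins, which mTORC1 switches off. Eif4ebp1, on chromosome 8 (27260329 to 27276674, plus strand), was at 48.7, 54.5, 58.0 and 74.4 FPKM in the controls and 104, 1.47 and 58.2 in the knockouts. The value in Dek_cKO replicate 2 rests on 13 reads, against 409 to 3120 in the others, and without that library the log2 fold change turned from -1.25 (SE 1.10) to 0.42. Eif4ebp2 was lower, at 23.3, 4.42, 29.7 and 13.9 FPKM in the controls and 41.1, 8.17 and 15.8 in the knockouts.

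Enzymes that modify elongation factors were low and patchy. Eef1akmt1, a lysine methyltransferase of eEF1A, was at 34.3, 17.6 and 59.2 FPKM in control replicates 1 to 3 and listed at 0 in replicate 4, and in the knockouts it was at 19.5, listed at 0, and at 115. Eef1akmt2 was listed at 0 in Dek_fl replicate 1 and at 69.8, 114 and 23.6 FPKM in the others, with 20.04, 6.13 and 52.8 in the knockouts. Eef1akmt4 was listed at 0 in control replicates 1 and 4, at 17.4 and 15.5 FPKM in replicates 2 and 3, and at 44.3, 50.5 and 3.76 in the knockouts. For Eef1akmt1 both groups held a zero, while for Eef1akmt2 and Eef1akmt4 the zeros were in the controls alone, and the groups overlapped in all 3 genes. Eef2k, the kinase that inhibits eEF2, ranged from 0.981 to 45.9 FPKM.

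The comparison between the groups addresses the role of Dek in HSCs, and no translation factor was called. Of the 62 genes, 57 had at least 1 FPKM in at least 3 libraries and were tested, and the other 5, Eef1a2, Eef1akmt3, Eif2c5, Eif4e1b and Eif5a2, were at or near 0 in most libraries. Eif2c5 matches by its symbol, from an older naming of Argonaute genes. By limma 0 of 57 passed an adjusted p of 0.05, as did 0.0% of the 10260 genes tested. Dek itself did not pass either, although its groups did not overlap. By limma its log2 fold change was -2.81 (SE 0.962), with an unadjusted p of 0.00853 and an adjusted p of 0.9999. A gene without a call here was therefore not shown to be unchanged. At an unadjusted p under 0.05 there was 1 member, Eif4h, against 3.94% of all genes, and voom on the recovered reads also called 0, with 1 member, Eef1a1, and 547 genes, or 5.33%, under that p. In 0 of 57 members did the groups not overlap, against 4.94% of all genes, of which 2.86% were higher and 2.09% lower.

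The members under an unadjusted p of 0.05 by limma changed with the library left out, and 0 passed the adjusted threshold. Without Dek_fl replicate 4 they were Eef2kmt, Eif3m and Eif4h, lower, and Eif2b4, higher, where 5.53% of all genes passed, 3.47% lower and 2.06% higher. Without Dek_cKO replicate 3 they were Eif3d and Eif4h, lower, and Eef1akmt4, higher, where 4.68% of all genes passed, 2.55% lower and 2.13% higher. Without Dek_fl replicate 3 it was Eif2b5 in place of Eif4h, where 3.61% of all genes passed. Without Dek_cKO replicate 2 there were 0, where 2.61% of all genes passed, 0.998% lower and 1.61% higher, and leaving out replicate 1 or 2 of the controls, where 3.5% and 3.68% of all genes passed, or replicate 1 of the knockouts, where 3.36% did, also gave 0.

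Fold changes of the 57 lay on both sides of 0. There were 25 above and 32 below, with a median of -0.08, while all genes tested had a median of 0.05. The median of the members was 0.16 without Dek_cKO replicate 2 and 0.06 without Dek_fl replicate 3. Single-gene SEs were 0.99 in the median on the log2 scale, so that differences of that size were not detectable. In Eef1a1, with the smallest SE of the abundant members, the log2 fold change was -0.32 with a 95% interval of -0.96 to 0.32. For Eif5a it was -0.17 (-1.005 to 0.66) and for Eef2 -0.19 (-1.15 to 0.76).

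By complex, the members of eIF3 had 6 above and 8 below 0, with a median of -0.28, which was 0.17 without Dek_cKO replicate 2. The lowest was Eif3d, at -1.57 (SE 0.880), and it was -0.97 without Dek_cKO replicate 2. In eIF4F and its helpers 2 were above and 8 below 0, with Eif4h at the lower end and Eif4g1 at 0.31 at the upper. Among start-site and joining factors 6 were above and 2 below 0, with a median of 0.69, which was 0.03 without Dek_fl replicate 4. That library is the one in which Eif6, Eif5 and Eif1ax were lowest, and Eif6 moved from 1.89 (SE 1.295) to 0.26 without it. The subunits of eIF2B ran from -1.94 (SE 1.17) for Eif2b5 to 2.28 (SE 1.24) for Eif2b4, with unadjusted p-values by limma of 0.113 and 0.0799. Without Dek_fl replicate 2, where it rests on 8 reads, Eif2b4 was at 1.27. The 7 tested genes grouped under eEF1, eEF2 and eIF5A had 2 above and 5 below 0. Those above were Eef1d, at 0.059 (SE 0.731), and the synthetase scaffold gene Eef1e1, at 1.25 (SE 1.19).

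**Figure D3:**
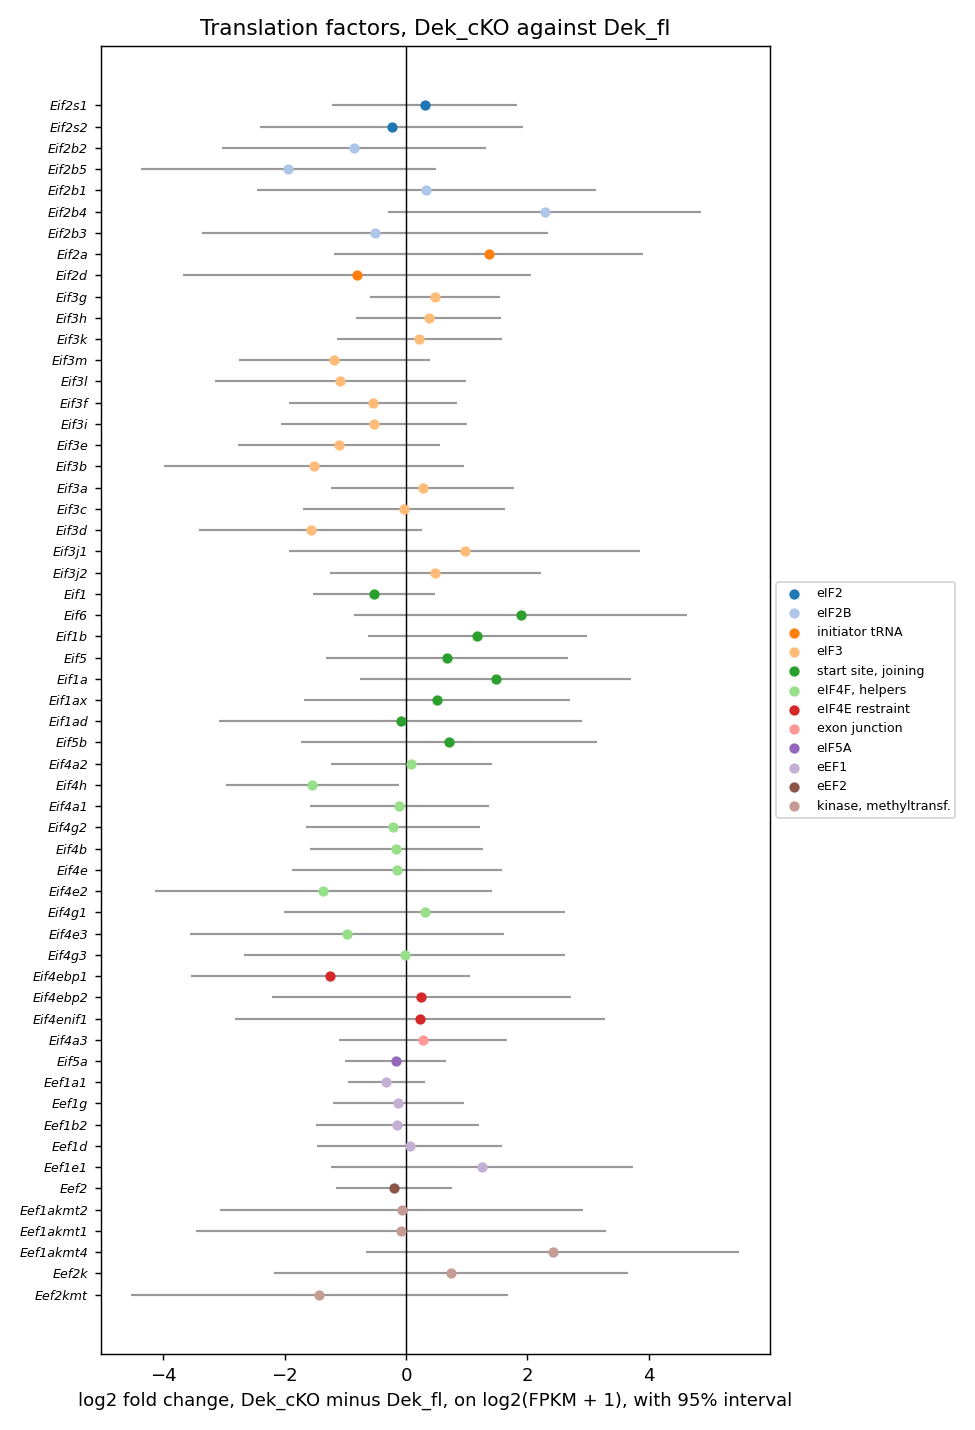
Log2 fold change of the 57 tested members, Dek_cKO minus Dek_fl on log2(FPKM + 1), with points coloured by complex and lines giving the 95% interval from limma. Intervals of 56 members cross 0 and that of Eif4h runs from -2.97 to -0.12, before adjustment over all genes.

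The spread between libraries was lowest in the most abundant members and highest in the scarce ones, but did not fall steadily between. The 6 tested members at 300 FPKM or more had a median SD of 0.57 on the log2(FPKM + 1) scale over the 7 libraries, and the 201 genes of that level had 0.65. The 14 members at 50 to 100 FPKM had 0.81, and the 968 genes of that level 1.26. The 12 members at 100 to 300 FPKM had 0.92, above the members of the level under it and close to the 0.89 of the 634 genes of their own level. The 25 members under 50 FPKM had 1.81, against 1.59 for 8457 genes. Members at one level still differed widely. Eif6, at a mean of 154 FPKM, had an SD of 2.63, whereas Eif3h, at 164, had 0.39, and Eif4b, at 82.7, had 0.32 against 2.23 for Eif3b at 79.8.

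**Figure D4:**
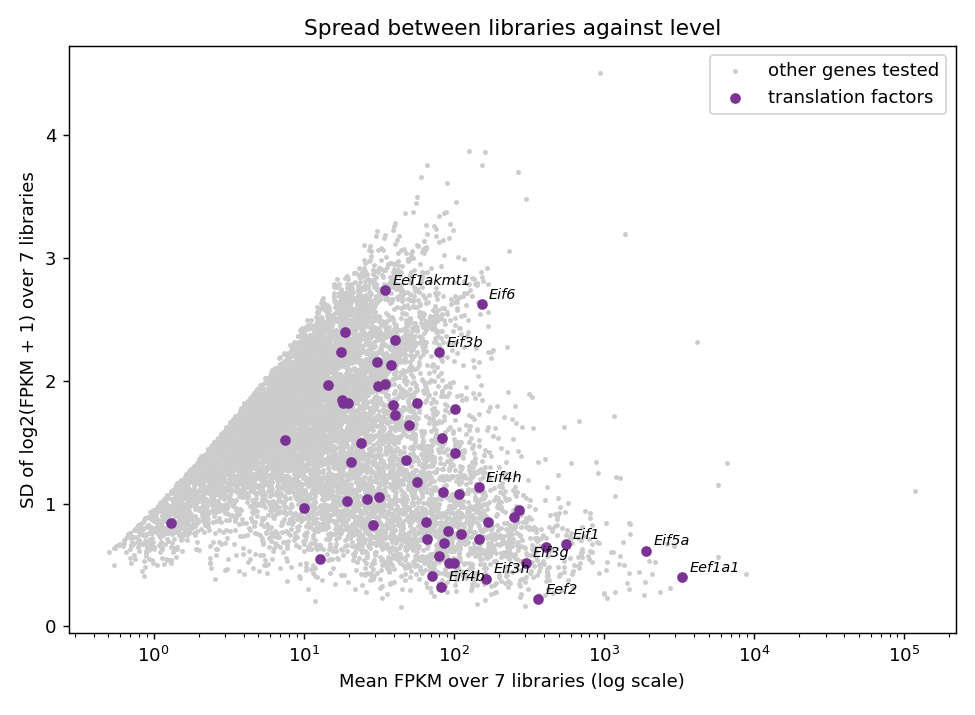
SD of log2(FPKM + 1) over the 7 libraries against the mean FPKM on a log axis, for the 57 tested translation factors (purple) and the other genes tested (grey). Eef2, Eef1a1 and Eif5a sit at the lower right, while Eif6 and Eif3b stand high for their level.

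Low values of members were unevenly spread over the libraries of both groups. The number of the 62 listed at 0 was 5, 3, 2 and 8 in the Dek_fl libraries and 3, 4 and 5 in the knockouts. Tested members under 10 FPKM numbered 11, 9, 5 and 17 in the controls and 9, 15 and 5 in the knockouts. Dek_fl replicate 4 and Dek_cKO replicate 2 had the most under 10 FPKM, and their totals, 4521306 and 4422645 reads, were among the lowest 3. Dek_fl replicate 1 had the lowest total, 4209152 reads, and 11 such members, while Dek_fl replicate 2 had 9 with 15653905 reads. The part of depth in these counts was not tested.

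The 44 partners and regulators of the factors gave no call either, with 42 of their rows in the table tested. By limma 0 passed the adjusted threshold, and 1 was higher and 1 lower at an unadjusted p under 0.05, against 2.12% and 1.81% of all genes. Ppp1r15b, a subunit of the phosphatase that reverses eIF2 alpha phosphorylation, was at 0.170, 10.5, 0.0066 and 0.712 FPKM in the controls and 47.8, 34.8 and 11.9 in the knockouts. The groups did not overlap, and it had a log2 fold change of 3.69 (SE 1.33) and, by limma, an adjusted p of 0.9999. Paip2, which restrains the poly(A)-binding protein, was at 574, 714, 786 and 389 FPKM in the controls and 529.7, 153 and 289.7 in the knockouts, and its log2 fold change was -1.05 (SE 0.499). Dohh, the last enzyme in the hypusine modification of eIF5A, was the other partner without overlap, lower, with an unadjusted p of 0.0612 by limma. It was at 26.5, 32.3, 13.6 and 35.8 FPKM in the controls and at 9.43, listed at 0, and at 8.61 in the knockouts. A second gene under that symbol was listed at 0 in every library but Dek_cKO replicate 1, at 2.29 FPKM, and was not tested. Without overlap there were thus 1 higher and 1 lower of 42 tested, against 2.86% and 2.09% of all genes. The 4 kinases of eIF2 alpha, all tested, had 2 above and 2 below 0.

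Nearly all translation factors could be read back as whole numbers of reads. Of 56 members with enough reads to be assessed, 56 had whole values in every library with 1 transcript length per gene, 49 at the annotated length and 7 only at another, and 6 of the 62 were not assessed. In the table as a whole, 42 of the 7018 genes assessed had values that were not whole. Among the partners and regulators, 1 of 33 assessed had such values, the kinase gene Mtor.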

How the data were processed

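The values are FPKM as the authors deposited them for 7 libraries of sequenced RNA. The submitters' processing notes list Bowtie 0.12.9, the program Cufflinks 2.1.1, HTSeq and the build mm10; what each did is not given in the sources used here. Sample titles gave the columns, and 0 were left unmapped. The series text speaks of triplicates, and all 4 control libraries were used.

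Genes that reached 1 FPKM in 3 or more libraries were tested with limma (version 3.58.1, R 4.3.3), after log2(FPKM + 1), with the group alone as term and trended, robust moderation. The p-values, two-sided, were adjusted by Benjamini-Hochberg over 10260 genes, with a threshold of 0.05. Fold changes are Dek_cKO minus Dek_fl on this scale, which understates changes of low genes. The limma step was tested on simulated data.

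Reads were recovered as FPKM times transcript length times a library total, with whole meaning within rounding plus 0.003 reads, for genes that reached 30 reads in 5 or more libraries. Lengths and positions come from GENCODE M21 for GRCm38, which held 99.85% of the identifiers, and sequences from RefSeq, GRCm38.p6. Reads are not independent molecules, and the use of strand in counting is not stated.

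The members and lists were chosen with earlier results of these data known, and the start window was picked after 12 combinations were seen. Named were, in each of 12 factor complexes, the 2 genes of highest mean and the 1 of smallest p, plus any called, any without overlap between groups, and the 2 partners of smallest p. Alternatives were other pseudocounts and filters, median-of-ratios, quantile and TPM scaling, array weights, plain eBayes, a replicate block, leaving out genes that are not whole reads, voom and leaving out each library. Tables and plots were made with matplotlib 3.10.9, scipy 1.17.1, pandas 2.3.3 and numpy 2.4.6 under Python 3.11.15.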

Additional observations from a re-analysis of the deposited data

Results flagged for a closer look

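A library far from the others was looked for among the 4 Dek_fl libraries in 35 named genes and complex sums, and 1 was found. Chance alone flags about 1 in 20 of such tests, so 1 among 35 is not unusual. Eif5a2 was at 14.96 FPKM in Dek_fl replicate 4, and at 0.0074 to 1.75 in the other Dek_fl libraries. The gap to the nearest of them was 0.884 of the range, past Dixon's critical value for 4 samples. The Dek_cKO group, with 3 libraries, was not assessed.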

How the results depend on the processing

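Under all 19 alternatives 0 translation factors and 0 genes were called, and the smallest adjusted p of any gene was 0.155, by voom. Members at an unadjusted p under 0.05 numbered 0 to 1 higher and 0 to 3 lower. Among the 24 named members tested, 13 kept their sign under all alternatives that gave a value. The sign of the other 11 turned, among them Eif4ebp1 at -1.25 and Eif2d at -0.81, and the cause was not tested. Eef1akmt2 was at 0.14 with a pseudocount of 0.5, 0.68 with 0.1 and 0.071 after TPM rescaling. Eif4a2 was at -0.22 and Eif4a3 at -0.19 with array weights, and by voom they were at -0.32 and -0.27, with Eif2s2 at 0.13. The replicate block gave Eif4a2 -0.0024 and Eif4a3 -0.22 and called 0 genes. Dek_fl replicate 4 has no Dek_cKO library of its number, and the block gave the same fold changes of these genes as leaving that library out. Same-numbered libraries did not deviate together, with correlations of their deviations from the group means of -0.03, -0.07 and 0.04. No pairing by number was seen in the values. These correlations cannot decide whether such libraries shared a batch, since the noise of single libraries could hide it. Leaving out 1 library at a time gave ranges of -1.64 to 1.79 for Eef1akmt1, -1.54 to 0.74 for Eef1akmt2, -0.51 to 0.41 for Eef1g, -0.97 to 0.011 for Eif1, -1.86 to 0.046 for Eif2d, -0.19 to 0.84 for Eif2s1, -0.87 to 0.16 for Eif2s2, -0.61 to 0.81 for Eif4a2, -0.22 to 0.63 for Eif4a3, -2.29 to 0.42 for Eif4ebp1 and -0.34 to 0.76 for Eif4ebp2. Eif4h stayed below 0 throughout, at -2.23 to -1.15. At least 1 FPKM in all 7 libraries left 42 members tested.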
